A study of Mus musculus with 12 samples.

Results

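The 8 transgenic hippocampal libraries of the series were pooled and compared with the 4 littermate libraries, to describe what the rTg4510 line changes whether or not the drug was given. All 12 of the 12 libraries entered the comparison, and all genes were fitted together. Of the transgenic libraries, 4 came from untreated rTg4510 mice (F2, F3, M1 and M3 in the labels) and 4 from rTg4510 mice given 3TC (F2, F3, M2 and M3). The control libraries (F1, F3, M2 and M3) came from littermates without treatment in their labels. Membership followed the labels alone, and no measured value was used.

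The rTg4510 mouse carries a mutant human tau transgene that is switched on by a tetracycline-controlled activator under the promoter of Camk2a, a kinase gene of forebrain excitatory neurons. It develops tau tangles and loses neurons in the hippocampus and cortex, and it is widely used as a model of tauopathy. The tau transgene sits in a vector built on mouse Prnp sequence. Published mapping of the line placed the activator at distal chromosome 12 and the tau transgene in the gene Fgf14 on chromosome 14. The line may therefore differ from its littermates at those loci as well as in tau, depending on which transgenes the littermates carried. 3TC (lamivudine) is a nucleoside inhibitor of reverse transcriptase. The sources used here give neither the littermates' transgene status nor the strain background, the age of the mice, or the dose and duration of 3TC, and the human tau RNA was not analysed here.

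Polyadenylated RNA was sequenced, and the deposited values are read counts per gene symbol. Library totals were 27351630 to 36112922 counts in the 8 transgenic libraries and 27286787 to 58173678 in the 4 littermates. Counts of Xist and Ddx3y went against the labelled sex of 2 littermate libraries (F3 and M3), so no sex term was fitted. Ttr, a choroid plexus transcript, was high in rTg4510 M1, littermate F1 and littermate F3 (1871 to 3907 CPM, that is, counts scaled to library size, against 16.3 to 129 in the other 9). Littermate M2, rTg4510 F3 and rTg4510+3TC F2 carried markers of neighbouring brain regions, and littermate F1 had the next highest thalamic score (1.07) after rTg4510+3TC F2 (2.32). A score is the log2 level of each gene of a list relative to its 12-library mean, averaged over the genes. The labels do not state that the libraries are from different animals, and p-values here reflect only the variation among libraries.

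Of 16618 genes tested, 8 passed between transgenic and littermate libraries (edgeR quasi-likelihood test, Benjamini-Hochberg adjusted p under 0.05). Prnp, Slc35f1, Car4 and Itgb2 rose, which is 0.0241% of all tested genes, and Esyt2, Wdr60, Ptprn2 and Ncapg2 fell, also 0.0241%. All 8 had transgenic values entirely outside the littermate range, and 5 of them belong to the 9 genes listed for the transgenes and their insertion sites. Without an adjustment for multiple tests, 680 genes (4.09%) were higher and 657 (3.95%) lower at p under 0.05, where chance alone gives 831 in all. The ranges of the groups did not overlap for 132 genes that were higher (0.794%) and 85 that were lower (0.511%). The median log2 fold change of all tested genes was -0.0014, and the 95% interval of a gene with at least 1 CPM extended 0.27 above and below its estimate at the median.

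The count of 8 moved with single libraries. It was 5 without littermate F1 or without littermate F3, 23 without rTg4510 F3 and 13 without rTg4510+3TC F2. Without littermate M2, rTg4510 F3 and rTg4510+3TC F2 together, 148 genes passed, 74 in each direction, among them all 8. Without littermate F1 as well, an alternative added after the data were seen that leaves 6 transgenic and 2 littermate libraries, 45 passed, 7 of the 8 among them (Itgb2 had an adjusted p of 0.0589, edgeR). Without the 3 libraries high in Ttr, which leaves 7 transgenic and 2 littermate libraries, 0 genes passed in edgeR, with 963 at an unadjusted p under 0.05.

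**Figure D1:**
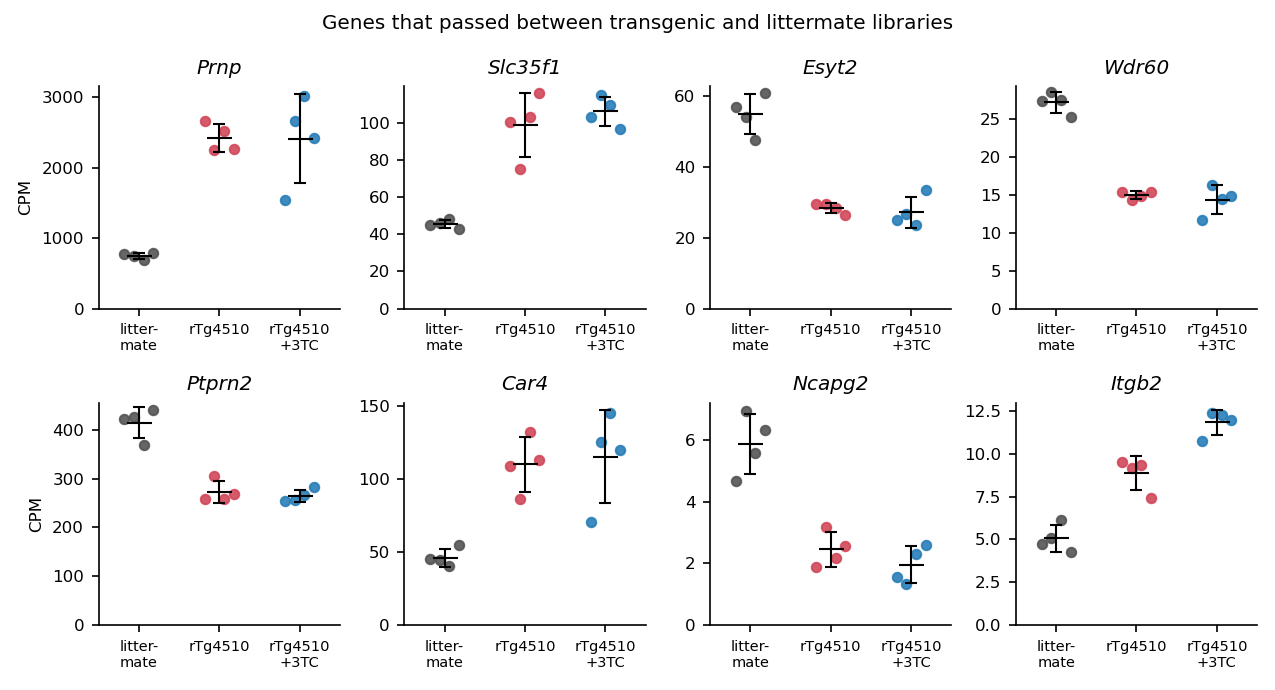
Level in CPM (vertical axes from 0) of the 8 genes that passed, by group (horizontal axes). Each point is 1 library, and the bar gives the mean ± SD of 4 libraries. In each panel the 8 transgenic points lie outside the range of the 4 littermate points, such as 1537 to 3016 CPM against 685 to 785 CPM for Prnp.

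Prnp encodes the prion protein, a glycoprotein anchored at the neuronal surface, and its gene lies at chr2:131909928-131938429 (mm10, plus strand). The transgenic libraries ran from 1537 CPM in rTg4510+3TC F2 to 3016 CPM in rTg4510+3TC M2, with a median of 2466 CPM. In littermates F1, F3, M2 and M3 the levels were 774, 742, 685 and 785 CPM. The lowest transgenic library was thus well above the highest littermate. The means were 2414 ± 433 CPM (SD, n = 8) and 747 ± 45.2 CPM (SD, n = 4), a log2 fold change of 1.69 ± 0.14 (SE) and an adjusted p of 0.000137 (edgeR quasi-likelihood test, Benjamini-Hochberg). Rassf2, the nearest tested gene downstream of Prnp, had -0.08 ± 0.10 on the log2 scale and did not pass, and none of the 8 tested neighbours passed, 4 on each side. The table counts reads per gene symbol, so reads from the endogenous gene and from Prnp sequence of the vector cannot be told apart. The promoter window of the endogenous gene is shown because it is the sequence at which native transcription of the gene with the smallest p starts. It spans chr2:131909678-131909977 on the plus strand (RefSeq, GRCm38.p6, 250 bases before the start and 50 after), 5′ to 3′, with no part in capitals.
Prnp: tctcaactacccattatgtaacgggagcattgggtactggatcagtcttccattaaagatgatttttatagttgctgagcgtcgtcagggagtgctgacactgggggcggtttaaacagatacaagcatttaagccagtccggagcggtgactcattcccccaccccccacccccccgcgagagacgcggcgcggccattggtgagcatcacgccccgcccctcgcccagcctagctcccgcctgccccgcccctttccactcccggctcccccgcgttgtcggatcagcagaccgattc

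Slc35f1 encodes a member of the SLC35F solute carrier family and lies at chr10:52690533-53111622. Its transgenic levels ran from 75.2 CPM in rTg4510 F3 to 116 CPM in rTg4510 M3, with a median of 103 CPM. Littermates F1, F3, M2 and M3 had 44.8, 46.1, 48.0 and 42.7 CPM. Even the lowest transgenic library exceeded every littermate, and the SD over the littermates was 2.23 CPM. The log2 fold change was 1.18 ± 0.10 (SE; adjusted p = 0.000137, edgeR). Of the 6 tested SLC35F genes, Slc35f1 alone passed. Slc35f3, Slc35f4 and Slc35f2 had 0.24 ± 0.13, 0.26 ± 0.16 and -0.22 ± 0.18, and the median of the 6 was 0.17.

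Car4 encodes a carbonic anhydrase bound to the outer cell surface, which interconverts carbon dioxide and bicarbonate (chr11:84957786-84966044). The transgenic libraries ran from 70.6 CPM in rTg4510+3TC F2 to 145 CPM in rTg4510+3TC M2, with a median of 116 CPM. The 4 littermates, in the same order, had 45.1, 44.4, 40.3 and 54.6 CPM. The groups did not overlap, and the log2 fold change was 1.29 ± 0.17 (SE; adjusted p = 0.00628, edgeR). The call was lost without littermate F1 (adjusted p = 0.0586) or littermate F3 (adjusted p = 0.0612), at nearly the same fold (1.27 in both fits). Among 12 tested carbonic anhydrases Car4 alone passed. Car8, Car2 and Car3 had -0.85 ± 0.38, -0.21 ± 0.12 and 0.69 ± 0.55, and the median of the 12 was -0.03.

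Itgb2 encodes CD18, the beta-2 integrin chain of leukocytes, which in the brain marks microglia and other immune cells. It pairs with the alpha chain encoded by Itgam to form complement receptor 3 and with that encoded by Itgax to form complement receptor 4. The gene lies at chr10:77530252-77565708. Transgenic levels ran from 7.40 CPM in rTg4510 M3 to 12.4 CPM in rTg4510+3TC F3, with a median of 10.2 CPM. Among littermates, F1, F3, M2 and M3 had 4.74, 5.07, 6.16 and 4.29 CPM. Transgenic and littermate ranges did not overlap, with a log2 fold change of 1.03 ± 0.16 (SE; adjusted p = 0.0360, edgeR). The 4 treated libraries (10.8 to 12.4 CPM) all lay above the 4 untreated transgenic ones (7.40 to 9.53 CPM). Between those 2 groups Itgb2 did not pass (adjusted p = 0.9998, edgeR), and 3.82% of all tested genes had an unadjusted p under 0.05. How many other genes separate the 2 groups in this way was not counted. When each library was left out in turn Itgb2 passed in 4 of 12 fits, those without rTg4510 F3, rTg4510 M3, rTg4510+3TC F2 or littermate M2, with adjusted p from 0.0152 to 0.242 over the 12 (edgeR). In bulk RNA, more cells of a type and more RNA per cell cannot be told apart.

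The 4 genes that fell are neighbours at the end of chromosome 12, where the activator of the transgene was mapped in this line. Wdr60 encodes an intermediate chain of the dynein that moves cargo along cilia (chr12:116206262-116263022, minus strand). Its transgenic libraries ran from 11.7 to 16.3 CPM with a median of 14.9 CPM, and littermates F1, F3, M2 and M3 had 27.4, 28.5, 27.6 and 25.3 CPM. The lowest littermate was thus above the highest transgenic library, with a log2 fold change of -0.89 ± 0.09 (SE; adjusted p = 0.000232, edgeR). Esyt2 encodes an extended synaptotagmin, a tether between endoplasmic reticulum and plasma membrane (chr12:116281196-116391050, plus strand). It ran from 23.6 to 33.3 CPM in the transgenic libraries with a median of 27.4 CPM, and stood at 56.9, 54.0, 47.6 and 60.9 CPM in littermates F1, F3, M2 and M3. Its log2 fold change was -0.98 ± 0.09 (SE; adjusted p = 0.000232, edgeR), a level 1.98-fold lower in the transgenic libraries, against 1.86-fold lower for Wdr60. The 2 genes point away from each other. Their promoter windows are shown because both fell and the space between them holds no other tested gene. The Wdr60 window spans chr12:116262976-116263275 on the minus strand and the Esyt2 window chr12:116280972-116281271 on the plus strand (RefSeq, GRCm38.p6), both 5′ to 3′ on the gene's own strand with no part in capitals.
Wdr60: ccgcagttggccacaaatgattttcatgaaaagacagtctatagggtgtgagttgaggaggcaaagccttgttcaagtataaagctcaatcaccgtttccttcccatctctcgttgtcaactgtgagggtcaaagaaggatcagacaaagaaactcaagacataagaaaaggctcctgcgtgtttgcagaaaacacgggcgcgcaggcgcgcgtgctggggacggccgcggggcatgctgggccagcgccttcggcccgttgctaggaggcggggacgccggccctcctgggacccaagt
Esyt2: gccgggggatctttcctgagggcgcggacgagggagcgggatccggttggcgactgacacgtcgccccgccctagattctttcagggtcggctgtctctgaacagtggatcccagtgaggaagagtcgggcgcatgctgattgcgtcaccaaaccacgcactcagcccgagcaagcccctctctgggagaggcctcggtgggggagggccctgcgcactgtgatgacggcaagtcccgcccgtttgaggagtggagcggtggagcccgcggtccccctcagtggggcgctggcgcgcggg

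Farther along the same arm, Ncapg2, a condensin II subunit (chr12:116405402-116463731), ran from 1.34 to 3.19 CPM in the transgenic libraries with a median of 2.25 CPM. Littermates F1, F3, M2 and M3 had 4.67, 6.95, 5.58 and 6.34 CPM, all above the transgenic range. Its log2 fold change was -1.41 ± 0.22 (SE; adjusted p = 0.0360, edgeR). The call held in 3 of the 12 fits that left out 1 library (without rTg4510 F3, rTg4510+3TC F2 or rTg4510+3TC F3), with adjusted p from 0.0109 to 0.265 over the 12 (edgeR). Ptprn2, a receptor-type phosphatase of secretory vesicles (chr12:116485720-117276849), ran from 255 to 305 CPM with a median of 262 CPM. The levels of littermates F1, F3, M2 and M3 were 422, 426, 369 and 441 CPM, so that the groups were far apart relative to their spread. Its log2 fold change was -0.63 ± 0.07 (SE; adjusted p = 0.000603, edgeR), a smaller fold than that of the other 3 genes that fell.

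The genes that fell formed a short run with an unlike neighbour at its proximal end and 2 tested genes inside it that did not pass. Vipr2, which encodes a receptor for vasoactive intestinal peptide (chr12:116077726-116146261), is the tested gene just before Wdr60. It ran from 3.17 to 7.57 CPM in the transgenic libraries with a median of 4.44 CPM, and stood at 2.09, 0.977, 0.868 and 1.52 CPM in littermates F1, F3, M2 and M3. The groups did not overlap, but the log2 fold change of 1.73 ± 0.30 (SE) did not pass (adjusted p = 0.0780, edgeR). Between Esyt2 and Ncapg2, D430020J02Rik had -0.14 ± 0.26, and Gm10421, which lies within Ptprn2 on the other strand, had 1.03 ± 0.94 at a mean of 0.394 CPM. Outside the run, Zfp386 had 0.09 ± 0.11 on one side and Rapgef5 0.18 ± 0.17 on the other, and neither passed. At the other mapped insertion site, Fgf14, a regulator of sodium channels (chr14:123977907-124677127), ran from 14.99 to 26.6 CPM in the transgenic libraries with a median of 18.7 CPM. Littermates F1, F3, M2 and M3 had 27.9, 30.0, 24.3 and 27.2 CPM, so that the ranges overlapped, and the log2 fold change of -0.46 ± 0.13 (SE) did not pass (adjusted p = 0.407, edgeR). Mapt, the mouse tau gene, stood at 654 ± 18.9 CPM in transgenic and 591 ± 27.2 CPM in littermate libraries (SD, n = 8 and 4; log2 fold change 0.15 ± 0.05, adjusted p = 0.537, edgeR). The ranges of Mapt did not overlap but nearly touched. Whether human tau reads were counted for it was not tested. Camk2a had -0.19 ± 0.16, with its lowest value, 2457 CPM, in rTg4510+3TC F2 against 4652 to 5726 CPM in the other 7 transgenic libraries. Over whole chromosomes, the share of tested genes whose groups did not overlap ran from 0.756% to 2.39% on the autosomes and X, and was 2.07% on chromosome 12.

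**Figure D2:**
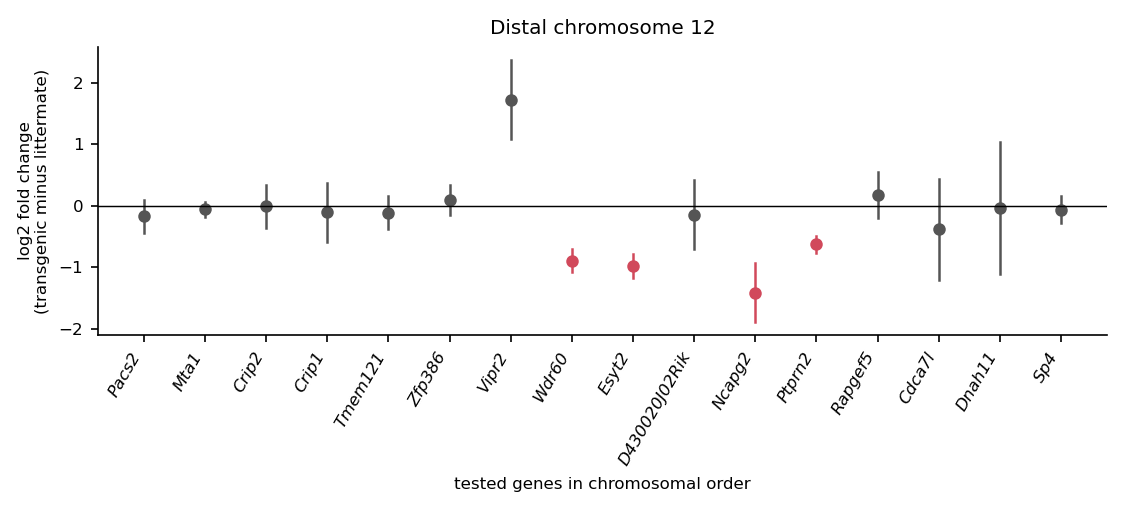
log2 fold change (transgenic minus littermate, vertical axis) with its 95% interval for tested genes of at least 1 CPM at the distal end of chromosome 12, in chromosomal order (horizontal axis). Wdr60, Esyt2, Ncapg2 and Ptprn2 (red, passed) lie between -0.63 and -1.41, Vipr2 lies at 1.73, and the intervals of the other 11 genes (grey with Vipr2, not passed) hold 0.

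Beyond the 8 genes, 12 more complete the 20 with the smallest p. None of the 12 passed. In all 20 the transgenic and littermate ranges did not overlap, against 1.31% of all tested genes. DESeq2, which called 93 genes in all, called all 20. Both follow in large part from choosing the 20 by smallest p in the same counts. Npnt, an extracellular matrix ligand of integrins (chr3:132881745-132950291), ran from 14.04 to 28.9 CPM in the transgenic libraries with a median of 20.96 CPM. Littermates F1, F3, M2 and M3 had 35.6, 44.9, 50.7 and 44.3 CPM, and the log2 fold change was -1.04 ± 0.17 (SE; adjusted p = 0.0574, edgeR). This was the gene nearest to the threshold from outside. Cemip, which takes part in the breakdown of hyaluronan, had 8.78 to 25.1 CPM in the transgenic libraries (median 14.9) and 27.7, 36.2, 30.7 and 29.1 CPM in the littermates (log2 fold change -1.04 ± 0.20, adjusted p = 0.131, edgeR). In the list of 25 tested matrix and perineuronal net genes, only these 2 had groups without overlap. The hyaluronan synthase gene Has3 had -0.53 ± 0.22 at an unadjusted p under 0.05, and the list's median was 0.02.

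Some of the remaining genes act in cell death or growth control. Pmaip1 encodes Noxa, a BH3-only protein that binds and blocks MCL1 and is induced by p53. It ran from 3.89 to 7.73 CPM in the transgenic libraries with a median of 5.49 CPM, against 1.57, 1.59, 2.63 and 3.02 CPM in littermates F1, F3, M2 and M3 (log2 fold change 1.39 ± 0.25, adjusted p = 0.0877, edgeR). The ranges were clear of each other. Among 22 tested p53 targets Pmaip1 was the only one at an unadjusted p under 0.05, where 4.09% of all tested genes were higher and 3.95% lower. Mdm2, Bax and Btg2 had -0.18 ± 0.10, -0.14 ± 0.09 and -0.43 ± 0.29, and the list's median was -0.05. In the BCL2 family (18 tested, 2 higher and 2 lower at an unadjusted p under 0.05, median -0.03), Hrk, another BH3-only gene of neurons, had 0.79 ± 0.22, and Bcl2l2 and Bok had -0.20 ± 0.07 and -0.35 ± 0.13. Btg1, an antiproliferative gene, had -0.43 ± 0.08, with 27.1 to 35.1 CPM in the transgenic libraries and 39.2 to 43.7 CPM in the littermates (adjusted p = 0.0897, edgeR).

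The other members of the 20 differed by less than 1 log2 unit, apart from Itgax. Lrp12, a receptor of the low-density lipoprotein receptor family, had 66.2 to 81.3 CPM in the transgenic libraries and 42.6 to 58.1 CPM in the littermates (0.50 ± 0.09, adjusted p = 0.0705, edgeR). Epdr1, a lysosomal glycolipid-binding protein, had 96.9 to 112 against 80.4 to 92.7 CPM (0.33 ± 0.06). Pde4b, a cyclic AMP phosphodiesterase, had 101 to 131 against 81.4 to 91.8 CPM (0.37 ± 0.07). Their transgenic ranges were higher but lay close to those of the littermates. The Eph receptor gene Ephb2 had 25.3 to 30.4 against 35.1 to 48.3 CPM (-0.49 ± 0.09), and Atf7, a transcription factor gene, had 33.4 to 40.4 against 45.4 to 61.0 CPM (-0.43 ± 0.08). In both of these genes littermate F3 stood apart from the other 3 littermates. Itgax and Arntl are described with their pathways.

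All 20 genes differed from the littermates in the same direction in untreated and in 3TC-treated mice. All 20 were chosen by the pooled comparison and had ranges without overlap, so the shared direction follows from that choice and is no separate evidence. The 2 sets of values also share the 4 littermate libraries, so they are not independent of each other. Prnp had 1.70 ± 0.16 (SE) in rTg4510 and 1.69 ± 0.16 in rTg4510+3TC. Slc35f1 had 1.12 ± 0.11 and 1.23 ± 0.11, and Wdr60 -0.86 ± 0.10 and -0.92 ± 0.11. The widest gap between the 2 values was that of Itgax, with 3.38 ± 0.71 and 4.36 ± 0.73. In the direct comparison of rTg4510+3TC with rTg4510 no gene passed (edgeR). There, 635 genes (3.82%) had an unadjusted p under 0.05, DESeq2 called 1 gene, and limma-voom called 0. Of the 20 genes only Itgb2 had an unadjusted p under 0.05, with 0.42 on the log2 scale higher under 3TC (95% interval 0.11 to 0.73; adjusted p = 0.9998, edgeR). For Prnp the 95% interval of the difference was -0.35 to 0.33, and for Esyt2 it was -0.31 to 0.18. The 5 genes with the smallest p for the drug were Pard3, Snord95, Rprm, Ptprv and Krt83. In the pooled comparison with littermates, their unadjusted p ran from 0.311 for Pard3 to 0.814 for Krt83.

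**Figure D3:**
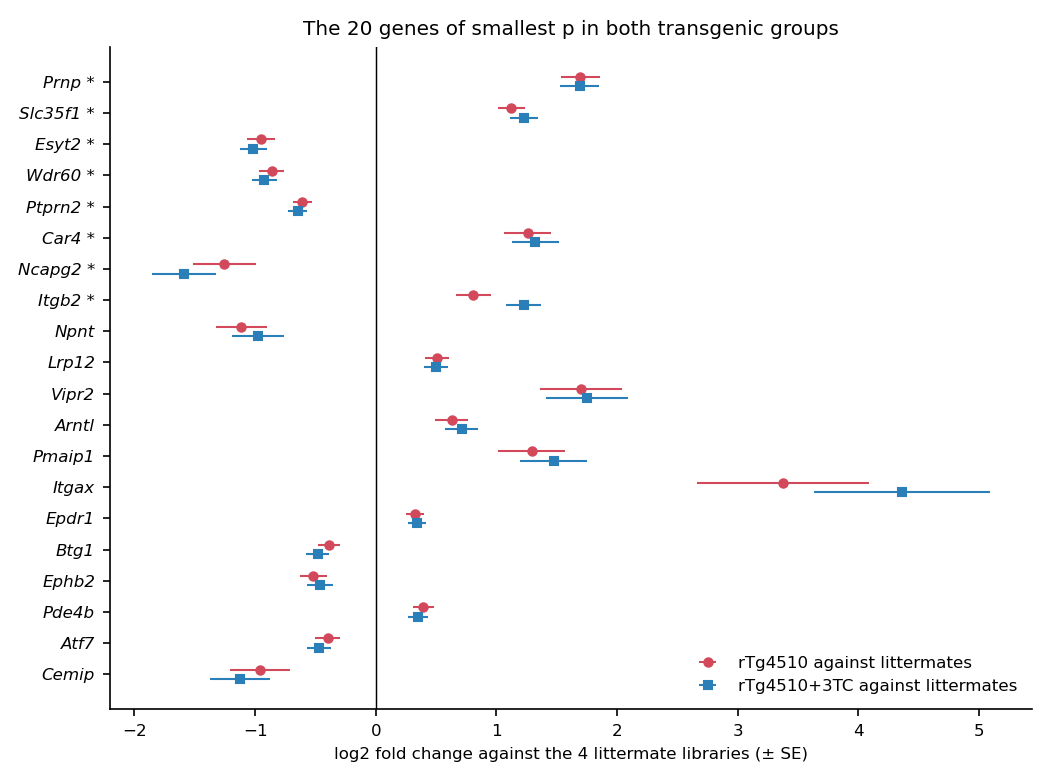
log2 fold change ± SE against the 4 littermate libraries (horizontal axis) for the 20 genes of smallest p, in rTg4510 (circles) and rTg4510+3TC (squares), from a fit of 3 groups of 4 libraries; a star marks the 8 genes that passed in the pooled comparison. Both symbols lie on the same side of 0 for every gene, from Ncapg2 at -1.26 and -1.59 to Itgax at 3.38 and 4.36. This follows from choosing the genes by the pooled comparison, where their ranges did not overlap.

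Genes of microglia were mostly higher in the transgenic libraries. Microglia are the resident phagocytes of the brain. Around plaques, tangles and dying cells they are known to lower their resting genes and to raise a disease-associated set, a shift that in part needs the receptor TREM2 and its adaptor TYROBP. Of the 20 tested genes for microglial receptors and signalling, Itgb2 passed, 12 had an unadjusted p under 0.05 in the higher direction and 1 in the lower, and the median log2 fold change was 0.50 against -0.0014 for all genes. The shares over all tested genes were 4.09% higher and 3.95% lower at that p. Ptprc, the leukocyte phosphatase CD45, ran from 4.56 to 8.68 CPM in the transgenic libraries and from 2.21 to 3.91 CPM in the littermates (1.04 ± 0.23, adjusted p = 0.221, edgeR). Fcer1g, the signalling chain of Fc receptors, had 6.61 to 11.9 against 3.94 to 6.57 CPM (0.69 ± 0.18), the 2 ranges nearly touching. Ly86, a partner of a Toll-like receptor homologue, had 0.63 ± 0.16. In the 12 genes of homeostatic microglia, 4 were higher and 0 lower at an unadjusted p under 0.05, with a median of 0.15, and all 12 had overlapping groups. Olfml3 had 0.47 ± 0.16, Csf1r 0.29 ± 0.12 and Cx3cr1 0.30 ± 0.12. Littermate M2 was the highest littermate for Csf1r and Cx3cr1, and without it, rTg4510 F3 and rTg4510+3TC F2 these 3 genes passed (0.46 to 0.64, edgeR). When littermate F1 was left out too, only Csf1r of the 3 passed.

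Disease-associated microglia genes had 24 members tested, of which 13 were higher and 1 lower at an unadjusted p under 0.05, with a median of 0.40. At that p, 4.09% of all tested genes were higher and 3.95% lower. None of the 24 passed. Itgax, which encodes CD11c (chr7:128129547-128150657), had 23 to 133 counts in the transgenic libraries and 6, 0, 6 and 7 counts in littermates F1, F3, M2 and M3. These are 0.684 to 3.83 CPM with a median of 1.45 CPM, against at most 0.178 CPM. The groups were far apart, and rTg4510+3TC F3 and M2 were the highest. The log2 fold change of 3.95 ± 0.72 (SE; adjusted p = 0.0897, edgeR) rests on the few littermate counts. Clec7a, the beta-glucan receptor dectin-1, had 17 to 129 counts against 0, 6, 3 and 7 (4.08 ± 0.83, adjusted p = 0.148, edgeR), with the same separation. Igf1, a growth factor, had 11.8 to 17.7 against 7.36 to 10.7 CPM (0.57 ± 0.13), and Cd52 had 1.65 ± 0.43. The list's median was 0.31 in rTg4510 and 0.43 in rTg4510+3TC against the shared littermates.

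Complement tags synapses and debris for removal by microglia. Of its 18 tested genes, 8 were higher and 0 lower at an unadjusted p under 0.05, 4 had groups without overlap, and the median was 0.36. Over all tested genes, 4.09% were higher and 3.95% lower at that p, and 0.794% were higher and 0.511% lower without overlap. C1qb, a chain of the initiating component C1q, ran from 42.7 to 72.8 CPM in the transgenic libraries with a median of 54.3 CPM. Levels in littermates F1, F3, M2 and M3 were 30.6, 33.6, 41.7 and 31.6 CPM, so that the lowest transgenic library, rTg4510+3TC F2, was just above littermate M2. The log2 fold change was 0.71 ± 0.14 (SE; adjusted p = 0.142, edgeR). C1qa, another C1q chain, had 60.2 to 115 against 47.1, 48.6, 59.3 and 48.8 CPM (0.71 ± 0.16, adjusted p = 0.221, edgeR). C4b, which acts after C1q and is made by astrocytes and oligodendrocytes too, had a median of 102 CPM in the transgenic libraries against 33.1, 23.4, 19.8 and 31.7 CPM in the littermates (1.91 ± 0.39, adjusted p = 0.148, edgeR). Its groups overlapped through 1 library, rTg4510 F3 at 22.1 CPM, while the other 7 transgenic libraries stood at 69.7 to 148 CPM. Reads of C4b may be shared with its near-identical copy C4a. In the fit without rTg4510 F3, C4b passed.

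Antigen presentation and interferon genes had positive medians and no gene that passed. At an unadjusted p under 0.05, 4.09% of all tested genes were higher and 3.95% lower. Of 16 tested MHC class I and processing genes, 5 were higher and 0 lower at that p, with a median of 0.24. B2m, the light chain, had 0.36 ± 0.10, Tap1, a peptide transporter, 0.54 ± 0.19, and the chaperone Canx 0.21 ± 0.07. H2-D1, whose reads may be shared with other class I genes, had 0.38 ± 0.12. The score of the list ran from 0.0135 to 0.183 in the transgenic libraries and from -0.276 to -0.0400 in the littermates. MHC class II genes (8 tested) had 2 higher and 0 lower, with a median of 0.50. Ctss, the protease that trims the invariant chain, had 0.68 ± 0.16, and Cd74, the invariant chain itself, 0.79 ± 0.31 with 7.52 CPM in rTg4510+3TC F3 and 4.34 CPM in littermate F1. Ciita and H2-Ab1 had 0.48 ± 0.30 and 0.48 ± 0.35. Type I interferon response genes (32 tested) had 3 higher and 1 lower, with a median of 0.22. Oasl2 and Trim30a were among the 3 (0.92 ± 0.34 and 0.69 ± 0.30), and Irf9 was the lower one (-0.43 ± 0.17).

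Reactive astrocyte genes (27 of 28 tested) had 8 higher and 0 lower at an unadjusted p under 0.05, with a median of 0.37. The shares over all tested genes were 4.09% higher and 3.95% lower at that p, and 0.794% higher without overlap. S100a10, an annexin partner, had 0.60 ± 0.12, and Aspg, an asparaginase, ran from 4.22 to 10.8 against 2.55 to 3.92 CPM (1.11 ± 0.24, adjusted p = 0.159, edgeR). Gbp2, a guanylate-binding protein, had 3.84 to 5.32 against 1.59 to 3.41 CPM (0.70 ± 0.21). The groups did not overlap in CPM for Aspg, Gbp2 or the chemokine gene Cxcl10. For Cxcl10, rTg4510+3TC F2 and littermate F1 had 3 counts each. Only their library totals (32749679 and 58173678 counts) set these 2 apart in CPM. Cxcl10 had 3 to 37 counts in the transgenic libraries and 3, 0, 0 and 1 in littermates F1, F3, M2 and M3, so that its log2 fold change of 4.40 ± 0.99 rests on 4 littermate counts. The 16 genes of astrocyte identity and transport had 1 higher and 0 lower, with a median of 0.06. Lysosomal genes (29 tested) had 10 higher and 0 lower and a median of 0.10. Man2b1, a mannosidase, had 49.7 to 64.8 against 39.5 to 46.7 CPM (0.34 ± 0.08), and Ctsz, a cathepsin, 0.44 ± 0.13. Heat shock chaperones (20 tested) had 7 higher and 1 lower and a median of 0.15. Hsp90aa1 had 872 to 1108 against 745 to 859 CPM (0.29 ± 0.08), and Hspa8 1305 to 1656 against 1164 to 1290 CPM (0.23 ± 0.07), both without overlap. Hsph1 had 0.36 ± 0.11, and Hspa1b, whose reads may be shared with its copy Hspa1a, 0.49 ± 0.20. None of the genes in these lists passed.

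Dentate granule neuron and myelin genes had negative medians, pyramidal neuron genes a median nearer 0 and interneuron genes a positive one. At an unadjusted p under 0.05, 4.09% of all tested genes were higher and 3.95% lower. Dentate granule neuron genes (14 tested) had 0 higher and 7 lower at that p, with a median of -0.49. Npnt, described above, was 1 of the 7. Stxbp6, a syntaxin-binding protein, ran from 39.6 to 87.4 CPM in the transgenic libraries with a median of 48.1 CPM, against 85.6, 99.8, 81.6 and 93.3 CPM in littermates F1, F3, M2 and M3 (-0.74 ± 0.17, adjusted p = 0.249, edgeR). The overlap came from rTg4510 F3, which had 87.4 CPM while the other 7 had 39.6 to 63.1 CPM. Trpc6, a cation channel gene, and C1ql2, a synaptic organiser of mossy fibres, had -0.79 ± 0.26 and -1.33 ± 0.51. The lowest dentate score was in rTg4510 F3 (-1.29), and the list's median was -0.55 without that library, rTg4510+3TC F2 and littermate M2. It was -0.27, with 2 genes lower at an unadjusted p under 0.05, without the 3 libraries high in Ttr. CA1 and CA3 pyramidal neuron genes (17 tested) had 0 higher and 1 lower and a median of -0.12. Among them Htr1a had -0.41 ± 0.21, Wfs1 0.23 ± 0.27 and Pvrl3 -0.29 ± 0.16. In interneurons (20 tested, 2 higher, 1 lower, median 0.16), Gad2, which makes GABA, had 174 to 334 against 147 to 159 CPM (0.47 ± 0.16), Gad1 0.19 ± 0.08, Slc32a1 0.30 ± 0.15 and the peptide gene Sst -0.33 ± 0.12. The highest Gad2, Gad1 and Slc32a1 values and the lowest Sst value of the transgenic libraries were in rTg4510+3TC F2, the library highest in thalamic markers. Postsynaptic density genes (20 tested) had 0 in either direction and a median of -0.07.

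Myelin genes (14 tested) all had negative values, 6 of them at an unadjusted p under 0.05, with a median of -0.43. Over all tested genes, 3.95% were lower and 4.09% higher at that p. Mal, a proteolipid of myelin, had 93.9 to 243 CPM in the transgenic libraries with a median of 205 CPM, and 264, 273, 425 and 246 CPM in littermates F1, F3, M2 and M3 (-0.62 ± 0.20, adjusted p = 0.480, edgeR). The ranges did not overlap, but rTg4510 F3 had the lowest value and littermate M2 the highest. Cldn11, Tspan2 and Opalin had -0.61 ± 0.19, -0.46 ± 0.16 and -0.51 ± 0.19. The list's median was -0.20 in the fit without littermate M2, rTg4510 F3 and rTg4510+3TC F2. Immediate early genes (20 tested) had 0 higher and 4 lower, with a median of -0.41. Fosl2 had 23.2 to 45.8 against 52.4 to 60.1 CPM (-0.57 ± 0.15, adjusted p = 0.304, edgeR) without overlap. Arc, which regulates AMPA receptors at synapses, had 41.2 to 137 CPM against 83.7, 255, 430.1 and 123 CPM (-1.18 ± 0.38), with an SD of 156 CPM among the littermates. Nr4a1 had -0.79 ± 0.34 and Ier2 -0.66 ± 0.31. The immediate early median was -0.08 without littermate M2, which had the highest score (0.826). The sources used here do not give the time of day at which tissue was taken.

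**Figure D4:**
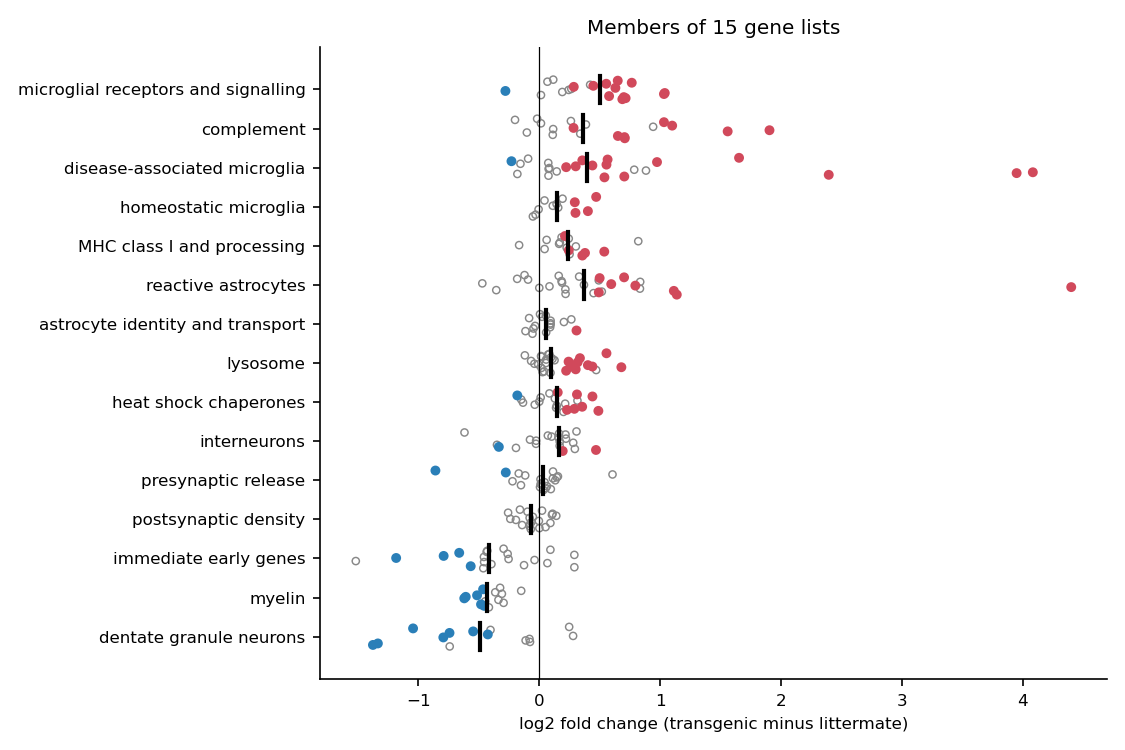
log2 fold change (transgenic minus littermate, horizontal axis) of every tested member of 15 gene lists (rows). Points are genes, filled where the unadjusted p was under 0.05 (red higher, blue lower), and black bars are list medians, from 0.50 for microglial receptors and signalling to -0.49 for dentate granule neurons.

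Among circadian clock genes the activator Arntl had higher, and several repressor and output genes had lower, values in the transgenic libraries. In the clock, the activators BMAL1 (Arntl) and CLOCK bind E-box sequences and switch on their own repressors, the Per and Cry genes, together with output factors such as Dbp, Tef and Ciart, while the PAR bZIP factors DBP and TEF act through D-box sequences. In many tissues Arntl and the Per genes therefore peak at opposite times of day. Of the 18 tested genes, 2 were higher and 7 lower at an unadjusted p under 0.05, none passed, and the median was -0.30. The shares over all tested genes were 4.09% higher and 3.95% lower at that p. Arntl ran from 38.0 to 62.6 CPM in the transgenic libraries with a median of 51.4 CPM, and stood at 29.3, 32.2, 31.4 and 32.5 CPM in littermates F1, F3, M2 and M3. The groups did not overlap and the littermates lay within a narrow band, at a log2 fold change of 0.67 ± 0.12 (SE; adjusted p = 0.0811, edgeR). Per3 ran from 14.9 to 40.7 CPM with a median of 28.1 CPM, against 46.6, 56.3, 65.6 and 48.4 CPM in the littermates, also without overlap (-0.92 ± 0.19, adjusted p = 0.157, edgeR). Per1 had 54.9 to 105 CPM against 104, 108, 120.2 and 117 CPM (-0.56 ± 0.13, adjusted p = 0.260, edgeR), the ranges meeting only at rTg4510 M3 and littermate F1. Clock, whose protein is the partner of BMAL1, had 0.11 ± 0.06. Without littermate M2, rTg4510 F3 and rTg4510+3TC F2, Arntl and Per3 passed (0.70 and -0.93, edgeR). Neither passed when littermate F1 was left out too.

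Output genes of the clock varied widely within the transgenic libraries. Ciart, a repressor of BMAL1 and CLOCK, ran from 3.23 CPM in rTg4510+3TC F3 to 12.8 CPM in rTg4510 F3, with a median of 5.45 CPM, against 11.5, 14.2, 23.0 and 12.8 CPM in littermates F1, F3, M2 and M3 (-1.11 ± 0.34). Dbp ran from 17.5 CPM in rTg4510 M1 to 64.3 CPM in rTg4510 F3, against 69.6, 66.2, 96.7 and 57.6 CPM (-0.95 ± 0.29). In both genes the overlap came from the high value of rTg4510 F3. Tef had -0.36 ± 0.11, Nr1d1 -0.27 ± 0.12 and Bhlhe41 -0.33 ± 0.13, whereas Nfil3, which opposes the PAR bZIP factors at D-boxes, had 0.47 ± 0.20. Cry1, Npas2, Bhlhe40 and Rorb lay between -0.03 and 0.05. In every fit that left out 1 library, the log2 fold change of Arntl was positive (0.62 to 0.72). The time of day of collection in each group was not tested.

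**Figure D5:**
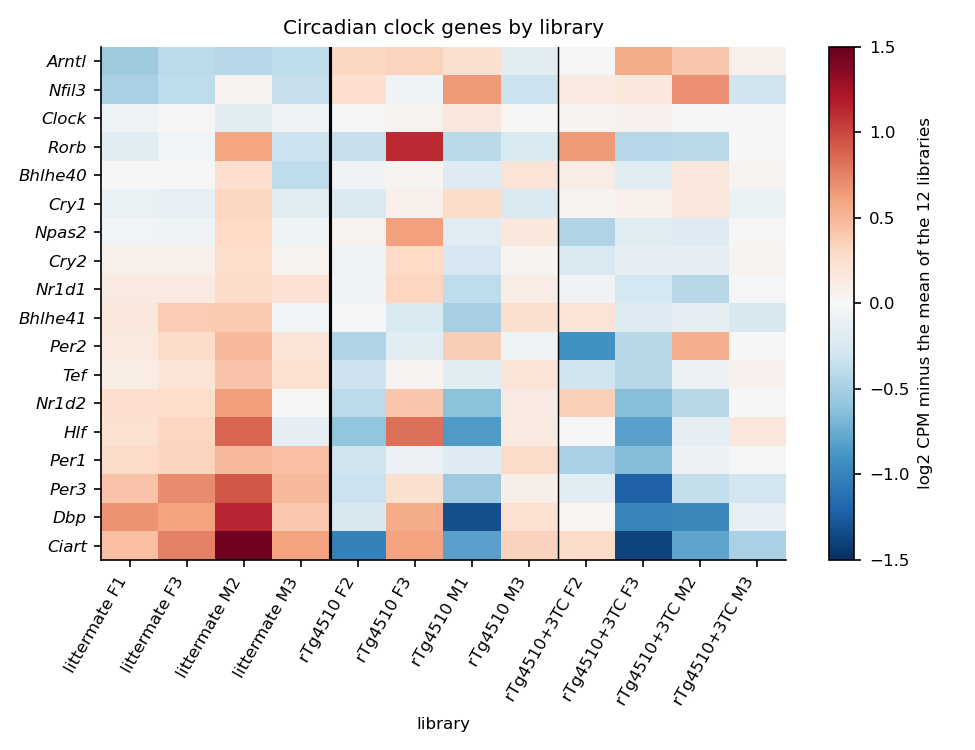
Level of 18 clock genes (rows, ordered by log2 fold change) in the 12 libraries (columns), as log2 CPM minus the gene's mean over the libraries, with the colour scale ending at 1.5 on either side. Littermates are left of the thick line; in all 4 of them Arntl (top) is below its mean and Ciart, Dbp, Per3 and Per1 (bottom) are above theirs.

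Promoter windows of 3 clock genes are shown because they hold the motifs named above. The E-box was searched as CACGTG and the D-box as TTATGTAA, on both strands, in the RefSeq windows of 250 bases before and 50 after each start (GRCm38.p6). Of 32851 windows, 7.15% hold this E-box and 0.938% this D-box. Counted by gene, 8.09% of the 27025 genes with a window hold this E-box and 1.11% this D-box. Of the 16 clock genes with a window, 5 hold the E-box (Per1, Cry1, Tef, Ciart and Bhlhe41) and 1 the D-box (Per3). Ciart holds 3 E-boxes, at 116, 58 and 44 bases before the start, Per1 has 1 at 166 bases and Per3 has 2 D-boxes at 205 and 158 bases before it. The windows are chr3:95882179-95882478 on the minus strand for Ciart, chr11:69098699-69098998 on the plus strand for 1 of the starts of Per1, and chr4:151044616-151044915 on the minus strand for Per3. Each is written 5′ to 3′ on the gene's strand, with the motifs in capitals. A match describes the letters only.
Ciart: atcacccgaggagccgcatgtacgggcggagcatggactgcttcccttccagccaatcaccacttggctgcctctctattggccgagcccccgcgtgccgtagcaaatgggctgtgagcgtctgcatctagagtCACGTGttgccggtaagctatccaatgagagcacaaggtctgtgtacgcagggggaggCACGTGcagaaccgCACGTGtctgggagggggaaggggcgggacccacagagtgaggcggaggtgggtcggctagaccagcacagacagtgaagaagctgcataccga
Per1: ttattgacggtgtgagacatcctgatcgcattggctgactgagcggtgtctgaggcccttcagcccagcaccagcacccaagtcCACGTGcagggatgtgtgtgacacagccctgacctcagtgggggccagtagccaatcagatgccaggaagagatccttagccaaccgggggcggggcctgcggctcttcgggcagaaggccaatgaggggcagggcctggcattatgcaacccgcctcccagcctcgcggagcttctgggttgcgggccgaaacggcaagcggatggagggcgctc
Per3: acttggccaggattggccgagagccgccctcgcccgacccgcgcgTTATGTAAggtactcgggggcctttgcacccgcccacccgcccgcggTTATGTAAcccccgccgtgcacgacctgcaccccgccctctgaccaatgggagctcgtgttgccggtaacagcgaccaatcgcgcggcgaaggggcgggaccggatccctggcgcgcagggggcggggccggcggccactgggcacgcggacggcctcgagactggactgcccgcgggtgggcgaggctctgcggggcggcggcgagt

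Of the 148 genes that passed without littermate M2, rTg4510 F3 and rTg4510+3TC F2, 49 (33.1%) belonged to 1 or more of the 48 gene lists, as did 797 of the 16742 genes tested there (4.76%). The lists were chosen with earlier results of these data known, so these shares are a description. All 148 had the same sign with all 12 libraries, and 112 of them had an unadjusted p under 0.05 there. The 12 libraries include the 6 transgenic and 3 littermate libraries in which the 148 were chosen, so this agreement is no separate check. The 148 include 19 of the 20 genes described above (the exception was Atf7). The genes named next were chosen after their values in this fit were seen. Among microglial and complement genes, C1qa, C1qb and C1qc rose by 0.90, 0.91 and 0.92 on the log2 scale, Ctss by 0.90, Tyrobp by 0.96 and C4b by 2.02. With all 12 libraries these 6 values, in the same order, were 0.71, 0.71, 0.65, 0.68, 0.70 and 1.91, and none passed. Littermate M2, left out here, was the highest littermate for C1qa, C1qb and Ctss and the lowest for C4b. In the fit without the 3 libraries Gfap, the filament protein of astrocytes, rose by 1.27 (adjusted p = 0.00746, edgeR). Among neuronal genes, Stxbp6 (-0.99), C1ql2 (-1.44), Prox1 (-0.74) and Doc2b (-0.998) fell, and Tbr1, a transcription factor of glutamatergic neurons, rose by 1.14. Tbr1 is in the list of neocortical neurons, and Ramp3 (-2.03, thalamic list) and Pdyn (-1.10, striatal list) passed too. Members of the lists for other brain regions were thus among the calls of this fit. Vipr2 rose by 1.59 and Fgf14 fell by 0.59, which brings to 7 the number of the 9 transgene and insertion-site genes that passed. That fit rests on 6 transgenic and 3 littermate libraries. When littermate F1 was left out too, 44 of the 148 passed. C1qa, C1qb, C1qc, Ctss, C4b, Gfap, Stxbp6, C1ql2, Doc2b and Tbr1 were among them, while Tyrobp, Prox1, Ramp3, Pdyn, Vipr2 and Fgf14 did not pass.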

How the data were processed

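RNA was polyadenylated RNA of mouse hippocampus, 12 libraries. The authors deposited unnormalised read counts by gene symbol (24411 entries, 1 table). STAR, DESeq2 and mm10 appear in the submitters' processing notes without versions or roles. The sources used here do not give the annotation, the filters or whether counting used strand, and reads of overlapping or near-identical genes may be split. The 27 entries that carry dates in place of symbols (0.285% to 0.363% of counts) were left out, which left 24384 genes. Genes were filtered with filterByExpr by class (minimum count 10, minimum total 15), scaled by TMM and fitted in edgeR 4.0.16 (R 4.3.3) with transgenic against littermate as the only term. The quasi-likelihood test was used, and a Benjamini-Hochberg adjusted p under 0.05 over the 16618 genes tested was a call. Each transgenic group and the drug comparison came from a fit of the 3 groups. CPM use TMM-scaled totals. A score uses log2 CPM with a prior count of 2. The procedure was tested on simulated data. At these depths 3 counts are 0.0519 to 0.11 CPM, so counting error matters mainly near 1 CPM. No replicate libraries were alike within sampling noise (chi-square per gene of 17.1 or more).

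The members and the 48 gene lists were chosen with earlier results of these data known, and lists are given as counts and medians with no test. The genes named are called genes, or the 20 of smallest p where fewer than 10 are called, the 9 transgene and insertion-site genes, up to 4 members of smallest p in each of 22 lists described, and 5 genes of smallest p for the drug. Others named were taken from the lists or chromosomal order after their values were seen. Of the genes the rule takes, 2 are not reported here. The 26 lists not described singly held 0 called genes, with medians from -1.16 (choroid plexus) to 0.59 (blood cells). Positions came from GENCODE M21 (mm10), which matched 15962 of the 16618 genes to 1 gene by symbol. Promoter windows came from RefSeq (GRCm38.p6). Labels give replicate codes, which were not taken as pairs: of 8 same-code pairs, 1 had a correlation of deviations over 0.1. Alternatives were DESeq2 1.42.0, limma-voom 3.58.1, other scaling, filters, sex terms, a fold threshold and leaving out libraries, of which 1, without littermate F1 and the 3 libraries with regional markers, was added after the data were seen.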

Additional observations from a re-analysis of the deposited data

Results flagged for a closer look

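In groups of this size, a library was marked where its gap to the nearest other library of its class was large against the class's whole range (Dixon's 95% critical value). Of 182 gene values by class and 44 list scores by class, 31 were marked, 16 high and 15 low, where chance marks about 5%. Littermate M2 accounted for 9, rTg4510+3TC F2 for 8 and rTg4510 F3 for 7. These 3 libraries carried markers of neighbouring brain regions, and the part of those markers in each value was not tested.

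Littermate M2 was high among the 4 littermates in genes of microglia. It had 59.3 CPM of C1qa, 72.6 of Ctss, 155 of Csf1r and 68.7 of Cx3cr1, and a homeostatic microglia score of 0.201 where the other 3 had -0.242 to -0.183. Its Mal level was 425 CPM, its Slc35f3 level was low at 24.8 CPM, its CA1 and CA3 pyramidal neuron score was -0.686 and its matrix score was -0.105.

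rTg4510+3TC F2 was low among the 8 transgenic libraries for Wdr60 (11.7 CPM), Sst (165 CPM), Bax (26.5 CPM), Camk2a (2457 CPM) and Wfs1 (73.8 CPM). It was high for Gad1 (368 CPM) and Slc32a1 (191 CPM). Its homeostatic microglia score was -0.389. rTg4510 F3 was low for the oligodendrocyte genes Cldn11 (74.3 CPM), Mal (93.9 CPM), Tspan2 (63.6 CPM) and Adamts4 (14.99 CPM), with a myelin score of -1.02 and a CA1 and CA3 pyramidal neuron score of -0.971. Its Pde4b level was high at 131 CPM.

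The other marked values were single genes. rTg4510+3TC M2 had 7.57 CPM of Vipr2 and 5.84 CPM of Car3. rTg4510+3TC M3 had 9.64 CPM of Oasl2 and rTg4510+3TC F3 had 7.52 CPM of Cd74. Littermate F1 had 4.34 CPM of Cd74, and littermate F3 had 48.3 CPM of Ephb2 and 61.0 CPM of Atf7.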

How the results depend on the processing

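Of the 93 genes that the naming rule takes for the pooled comparison, 92 had a value in all 28 alternatives and Cxcl10 in 21. Of these 2597 log2 fold changes, 2434 kept their sign and their side of the threshold, 116 passed only in the alternative and 46 passed only with all 12 libraries and the first settings. The sign turned in 1, Bax at 0.0082 without littermate F1 and the 3 libraries with neighbouring-tissue markers. Most of the 93 genes did not pass at first, so keeping their side mostly meant staying uncalled. All 46 losses fell on the 8 genes that passed. Prnp, Slc35f1, Esyt2 and Wdr60 passed in 26 of the 28 alternatives, Ptprn2 in 25, Car4 in 23, Ncapg2 in 14 and Itgb2 in 12. The count of 8 genes was 93 with DESeq2 (62 higher, 31 lower) and 61 with limma-voom quality weights (31 higher, 30 lower). It was 148 without the libraries with neighbouring-tissue markers, which leaves 6 transgenic and 3 littermate libraries. Without these and littermate F1 (added after the data were seen) it was 45, with 6 and 2 left. Without those highest in Ttr it was 0, with 7 and 2 left. Leaving out each library gave 5 to 23. Apart from the replicate block described below, the other alternatives gave 6 to 9. They include DESeq2 size factors (8), limma-voom (8), no filter (9) and the stricter filter of 1 CPM in 4 libraries (9). Labelled or exchanged sex (9 each), a fold threshold of 1.2 (6) and untreated (6) or treated (9) libraries alone are also among them. The cause of these differences was not tested. The drug count of 0 was 1 with DESeq2 and 0 in the other alternatives, including every library left out.

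With the replicate code as a block, 0 genes passed in the pooled comparison (743 at an unadjusted p under 0.05; smallest adjusted p = 0.075, edgeR) and 0 in the drug comparison. The codes pair no samples by the labels. Correlations of same-code libraries ran from -0.253 to 0.175, and 1 of 10 libraries correlated best with its own code. Of 616 list medians, 606 moved by less than 1 SD of the list's score among libraries of the same class. That SD can exceed the median itself, so this is a coarse measure. For immediate early genes it was 0.477, while the median was -0.41 with all 12 libraries and -0.08 without littermate M2.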

Other observations

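Lists of genes linked to tau and to protein clearance had medians close to 0 and no gene that passed. Of all tested genes, 4.09% were higher and 3.95% lower at an unadjusted p under 0.05. Of 22 tau kinases and phosphatases, 2 were higher and 0 lower, with a median log2 fold change of 0.0001 (edgeR, transgenic against littermate). Of 18 microtubule-associated proteins, 1 was higher and 2 lower, with a median of 0.02. Of 17 genes of the amyloid precursor family and its secretases, 3 were higher and 1 lower, with a median of 0.02. The 20 autophagy genes had 0 in either direction and a median of 0.04, and the 20 genes of the unfolded protein response had 2 higher and 0 lower and a median of 0.06.

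Retroelement control genes (21 tested) had 2 higher and 1 lower at an unadjusted p under 0.05, with a median of -0.03, and nucleic acid sensing genes (16 tested) had 0 in either direction, with a median of -0.004. Cholesterol synthesis and uptake genes (20 tested) had 2 higher and 0 lower, with a median of 0.08. Presynaptic release genes (21 tested) had 0 higher and 2 lower, with a median of 0.04. Endothelial and pericyte genes (20 tested) had 0 higher and 3 lower, with a median of -0.17. Border macrophage genes (10 tested) had 1 higher and 0 lower, with a median of 0.27. Choroid plexus genes (14 tested) had 0 in either direction and a median of -1.16, beside the 3 libraries high in Ttr.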
